A study of Mus musculus with 18 samples.

Results

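The comparison was made between colon crypts of 5 mice that lack *Olfr78* throughout the body and colon crypts of 2 WT mice, all of the Olfr78-GFP line. These are 7 of the 18 libraries of the series, chosen by their titles, and each library came from 1 mouse. Of the 52636 genes listed, 15975 had at least 40 reads per 20000000 in at least 2 of the 7 libraries and were tested. The remaining libraries are cells sorted from the colon epithelium and 5 crypt libraries of a second line, used below only for side by side values. The series asks what the receptor Olfr78 does in the colon epithelium.

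In the Olfr78-GFP line (strain B6;129P2-Or51e2tm1Mom/MomJ, Or51e2 being the other name of *Olfr78*) a GFP cassette takes the place of the receptor, so that homozygous mice (KO) lack it in every tissue and not in the epithelium alone. WT mice carry no cassette. The strain name gives a mixed B6 and 129P2 origin. No drug or diet was given according to the labels and methods, and the ages of the mice used for crypts are not given in the sources used here. In the second line, Vil1Cre/+-Olfr78fx, the Cre recombinase is driven by the villin promoter and removes *Olfr78* in the gut epithelium only (eKO, 2 mice). Genotype labels of that line give the 2 alleles in turn. The eKO mice are labelled HE/HO and WT/HO, and the 3 control mice HE/WT, WT/HO and HE/WT, so that eKO mouse 2 carries the same genotype label as control mouse 2 although its title calls it an eKO. In *Olfr78* itself the controls had 105, 61 and 124, eKO mouse 1 had 21 and eKO mouse 2 had 73, within the range of the controls. The library labelled eKO mouse 2 is therefore used below only as labelled, and directions in that line rest on it. Crypts of both lines were released from whole colon with EDTA and passed through a filter, without sorting, so that they hold every epithelial cell type and traces of other cells.

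Colon crypts are epithelial pits with stem cells at the base, which give rise to colonocytes (absorption of water, salt and short-chain fatty acids), goblet cells (mucus), enteroendocrine cells (hormones and serotonin) and tuft cells. Olfr78 is an olfactory receptor expressed outside the nose that responds to the bacterial metabolites acetate and propionate, and in the colon it is found in enteroendocrine cells. Because these cells are rare, the receptor's own RNA is scarce in whole crypts. In bulk libraries, fewer cells of a type and less RNA per cell cannot be told apart.

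All values below are reads per gene scaled to 20000000 per library, in the order WT mice 1 and 2, then KO mice 1 to 5. The 7 libraries held 6175306 to 8837749 reads on genes, and 1 read was worth 2.26 to 3.24. Log2 fold changes are KO minus WT on the scale log2(value + 10), which understates the change of low genes. A gene is called higher or lower when its Benjamini-Hochberg adjusted p from limma over all genes tested is at most 0.2 and its fold change is beyond 1.5. Adjusted p-values are from limma throughout. With 2 against 5 mice, an exact two-sided permutation test of a single value cannot go below p = 0.0952. The labels gave no batch. KO mouse 1 stood apart in the number of genes with any read, 37713 against 28455 to 33385 in the other 6 libraries. *Ddx3y*, *Kdm5d*, *Eif2s3y* and *Uty*, which lie on the Y chromosome, were high in all 7 libraries (*Kdm5d* 1748 to 2266), so that sex did not differ between the groups.

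Of the 15975 genes tested, 1270 (7.95%) were called higher and 244 (1.53%) lower in KO crypts, together 1514 (9.48%), and 577 and 111 of these held at an adjusted p of at most 0.05. Over all genes the log2 fold changes had a median of 0.03. All 5 KO libraries lay above both WT libraries for 18.2% of the genes tested and below both for 13.1%. Of the genes called higher, 444 were protein coding (35.0%), against 189 of those called lower (77.5%). The genes called higher were mostly of low abundance, with a median WT mean of 53.8 against 246 for those called lower. A gene could pass the filter through 2 of the 5 KO libraries alone, but from the WT side only through both libraries. Low genes that are high in KO crypts thus entered the test more easily. The counts depended on the WT mice: without WT mouse 2, 460 genes were called higher and 86 lower, and without WT mouse 1, 766 and 187.

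**Figure D1:**
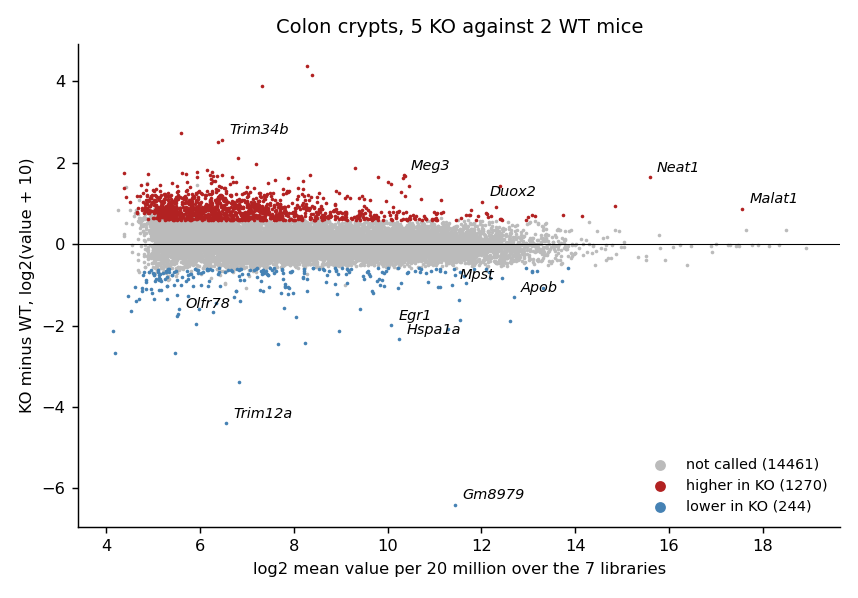
Each point is a gene tested, by its mean value per 20000000 over the 7 libraries (log2 scale) and its log2 difference between 5 KO and 2 WT crypt libraries, with 1270 genes called higher in red and 244 called lower in blue. Most red points sit at low levels, *Malat1* and *Neat1* are the most abundant genes called higher, and *Gm8979* lies lowest at -6.40.

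The targeted gene checks the labels. *Olfr78* (ENSMUSG00000043366, GRCm38 chromosome 7, 102738511 to 102759471, minus strand) had 88 and 111 in WT crypts and 42, 23, 27, 28 and 7 in KO crypts. Every KO library was below both WT libraries, at -1.71 on the log2 scale (standard error 0.38, adjusted p = 0.0199). The values count reads over the whole gene, including any exon that the cassette leaves in place. Without WT mouse 2 the log2 fold change was -1.56 and the call was lost (adjusted p = 0.227).

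*Olfr558* (chromosome 7, 102702215 to 102712064, plus strand), the neighbouring gene for a related receptor, was under the filter and was not tested. It had 56 and 32 in WT crypts, from 21 and 14 reads, and 17, 7, 12, 17 and 5 in KO crypts, from 2 to 7 reads. Here too the groups did not overlap. Among the other receptors and transporters of short-chain fatty acids, *Ffar2* (413 and 365 in WT, 363 to 658 in KO) and *Slc5a8* (7118 and 7749 in WT, 6656 to 7797 in KO) overlapped between the groups and were not called. *Slc16a1*, the monocarboxylate transporter MCT1, fell from 8807 and 11983 to between 5816 and 8187, -0.59 on the log2 scale (standard error 0.16, adjusted p = 0.0434), just past the fold threshold. Its call was lost without WT mouse 2 (-0.37) or without any of KO mice 1 to 3 (-0.54 to -0.56).

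Many of the largest differences lay on chromosome 7 near *Olfr78*. Within 5 Mb of it, a window set after the values were seen, 114 genes were tested, of which 16 were higher and 12 lower (24.6%), against 9.21% called in either direction on other chromosomes. Of the 18 called genes beyond 4-fold in the whole genome, 8 lay in this window, which is 7.02% of its genes against 0.0611% on other chromosomes. Among these 8, *Trim34b*, *Gm35082* and *Art2b* passed the filter only through KO libraries. *Trim12a*, *Trim30d* and *AC123830.1* passed it only through WT libraries. Their place among the genes tested thus depends on the group where they are high. Further out on the same chromosome the share called was 9.43% between 5 and 10 Mb and 16.0% between 10 and 20 Mb.

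*Gm8979*, an unprocessed pseudogene (chromosome 7, 106076751 to 106084046), was the gene with the smallest p of all. It had 9603 and 9412 in WT crypts and 78, 62, 84, 173 and 154 in KO crypts, -6.40 on the log2 scale (standard error 0.30, adjusted p = 6.61e-07). Its neighbour *Gm27149*, of the same class, fell from 541 and 453 to between 45 and 141 (-2.46, adjusted p = 0.00158). Reads of such copies can be split with related genes by the counting.

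Between 1.48 and 1.73 Mb from *Olfr78* lies a cluster of *Trim* genes, which encode E3 ubiquitin ligases of the tripartite motif family with roles in restricting viruses. *Trim12a* (chromosome 7, 104299894 to 104315466) had 269 and 360 in WT crypts and 6, 13, 3, 3 and 3 in KO crypts, where 3 is the value of 1 read. *Trim30d* (104470014 to 104507849) had 392 and 292 in WT and 34, 23, 12, 28 and 23 in KO crypts, so that the groups were far apart for both genes. Their log2 fold changes were -4.40 (standard error 0.32, adjusted p = 4.54e-05) and -3.39 (standard error 0.29, adjusted p = 0.000154).

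The cluster did not move one way. Of the 11 *Trim* genes tested within the 5 Mb window, 3 were higher in KO crypts (27.3%, against 7.95% of all genes) and 5 lower (45.5%, against 1.53%). All of these lie in the cluster. The other 3, *Trim21* (-0.07), *Trim68* (0.28) and *Trim3* (0.42), lie outside it and were not called. *Trim34b* (104329471 to 104336909) rose from 8 and 16 to 108, 120, 110, 109 and 148 (2.57, standard error 0.23, adjusted p = 0.000253). Its paralog *Trim34a*, beyond *Trim12a* and *Trim5* in the cluster, fell from 155 and 197 to between 70 and 118 (-0.88, adjusted p = 0.0291). *Trim30a* (-1.59) and *Trim5* (-1.21) fell, and *Trim12c* (0.66) and *Trim6* (0.78) rose. These genes are close paralogs, so how the counting splits reads between them is uncertain. The calls of *Trim34a* and *Trim30a* were lost without WT mouse 2, that of *Trim6* without WT mouse 1, and that of *Trim12c* without either WT mouse or KO mouse 5.

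Other neighbours that differed were *Art2b*, an ADP-ribosyltransferase of T cells, with 8 and 10 in WT and 108, 221, 126, 60 and 48 in KO crypts (2.52, standard error 0.43, adjusted p = 0.00925). The noncoding gene *Gm35082* was at 0 and 3 in WT and between 37 and 87 in KO crypts, and the antisense gene *AC123830.1* at 54 and 68 in WT and between 0 and 3 in KO crypts. *Il18bp*, whose product binds and blocks interleukin-18, rose from 128 and 172 to between 237 and 288 (0.77, adjusted p = 0.016), a call lost without WT mouse 1 (0.57). *Omp*, the olfactory marker protein gene, rose from 118 and 80 to between 224 and 338 (1.35, adjusted p = 0.00526). It lies inside *Capn5* on the same strand, which had 1846 and 1811 in WT and 1961 to 2189 in KO crypts (0.17, not called). Reads from unspliced RNA of *Capn5* can also fall on *Omp*, and their part was not tested.

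**Figure D2:**
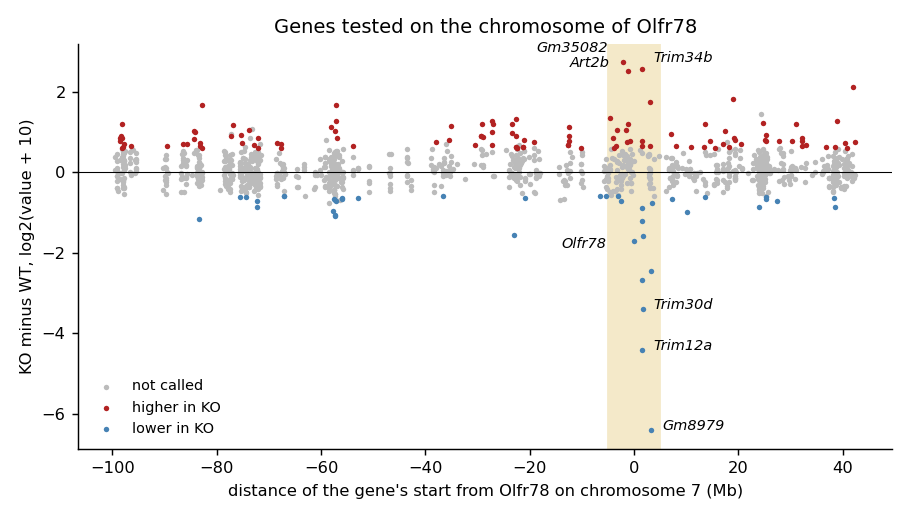
Genes tested on chromosome 7 by the distance of their start from *Olfr78* (Mb, the shaded band marks 5 Mb on either side) and their log2 difference between KO and WT crypts. Within the band, *Gm8979* (-6.40), *Trim12a* (-4.40) and *Trim30d* (-3.39) lie below and *Gm35082* (2.73), *Trim34b* (2.57) and *Art2b* (2.52) above all other genes of the band.

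The second line did not show these differences. Its controls and eKO mice had 5526 to 10221 of *Gm8979*, 318 to 554 of *Trim12a* and 337 to 795 of *Trim30d*, with eKO minus control log2 fold changes of -0.15, 0.04 and -0.01. The difference between the effects of the lines was tested as an interaction in limma over the 12 crypt libraries. It was called for 5 of 15090 genes (0.0331%), namely *Gm8979* (-6.26, adjusted p = 9.81e-05), *Trim12a* (-4.45, adjusted p = 0.000806), *Trim30d* (-3.38, adjusted p = 0.0708), *AC123830.1* (-2.72, adjusted p = 0.12) and *Gm27149* (-2.45, adjusted p = 0.172). All 5 lie within 3.4 Mb of *Olfr78*. The count of this test depended on the second line: without control mouse 1 it was 637 and without eKO mouse 2 it was 3063. Within the second line alone, limma called 0 of 15401 genes (0.00%), with 127 at an unadjusted p under 0.05, so the values of that line below are given for comparison only.

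*Meg3*, a nuclear long noncoding RNA expressed from the maternal copy of the imprinted Dlk1-Dio3 region, had the smallest p of any gene that rose. *Meg3* (ENSMUSG00000021268, chromosome 12, 109541001 to 109571726, plus strand) had 565 and 428 in WT crypts and 1436, 1707, 1709, 1722 and 1524 in KO crypts. The lowest KO library was far above the highest WT library. Its mean rose from 496.5 ± 96.9 (SD, n = 2) to 1620 ± 131 (SD, n = 5), 1.70 on the log2 scale (standard error 0.12, adjusted p = 4.54e-05 in limma).

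The noncoding RNAs that follow *Meg3* on the same strand rose with it. *Rian* (109603940 to 109661716), a host of small nucleolar RNAs, had 456 and 397 in WT and 997, 1302, 1569, 1552 and 935 in KO crypts (1.52, standard error 0.19, adjusted p = 0.00194). *Mirg*, a microRNA host, rose from 51 and 66 to between 102 and 212 (1.29, adjusted p = 0.019). *Rtl1*, a retrotransposon-derived gene, is protein coding and lies between *Meg3* and *Rian* on the opposite strand. It rose from 43 and 43 to between 62 and 138 (0.98, adjusted p = 0.0543), a call lost without either WT mouse. Without a stated strand setting, its reads cannot be told apart from RNA of the other strand.

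Of the 16 imprinted genes tested, 5 were higher (31.25%, against 7.95% of all genes) and 0 lower in KO crypts. The median log2 fold change was 0.33 against 0.03 for all genes. *Meg3* and the list were chosen with earlier results of these data known, so that these values are a description and no separate support. The fifth was *Airn*, the antisense RNA of the *Igf2r* region, from 200 and 279 to between 361 and 695 (0.85, adjusted p = 0.0441), lost without WT mouse 1 (0.62). Apart from *Airn*, the genes called are those of the Dlk1-Dio3 region above. *Meg3*, *Rian*, *Mirg* and *Airn* are noncoding, and 12.6% to 19.9% of all genes in their RNA classes were higher. *Kcnq1ot1* had a log2 fold change of 0.54 with no overlap between the groups (adjusted p = 0.0314), under the fold threshold.

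Levels of *Meg3* differed widely between mice of the second line. Control mice had 76, 1837 and 2589 and eKO mice 72 and 2929, and *Rian* had 107, 1102 and 1590 in controls and 54 and 2760 in eKO mice. When all 12 crypt libraries shared the estimate of the spread, *Meg3* (adjusted p = 0.469), *Rian* (0.478), *Mirg* (0.44) and *Rtl1* (0.526) were not called. Both tables were scaled alike but separately, so their levels are set side by side with that limit.

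*Neat1* and *Malat1*, abundant nuclear RNAs, were also higher. *Neat1* (chromosome 19, 5824708 to 5845478), the scaffold RNA of paraspeckles, had 23650 and 15866 in WT crypts and 52261, 74335, 68096, 58764 and 52908 in KO crypts (1.65, standard error 0.17, adjusted p = 0.00083). *Malat1*, a nuclear speckle RNA and among the most abundant genes of the libraries, rose from 126680 and 116299 to between 183998 and 249478 (0.87, adjusted p = 0.0116). The groups did not overlap for either gene. Of the 6 nuclear long noncoding RNAs tested, 4 were higher (66.7%, against 7.95% of all genes). The fourth was *Xist*, at 14 and 34 in WT and 33 to 94 in KO crypts, which is low in males and lost its call without either WT mouse. The share counts the leading gene *Meg3* and is a description as well. Together *Malat1* and *Neat1* took 0.660% and 0.751% of WT libraries and 1.18% to 1.62% of KO libraries.

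**Figure D3:**
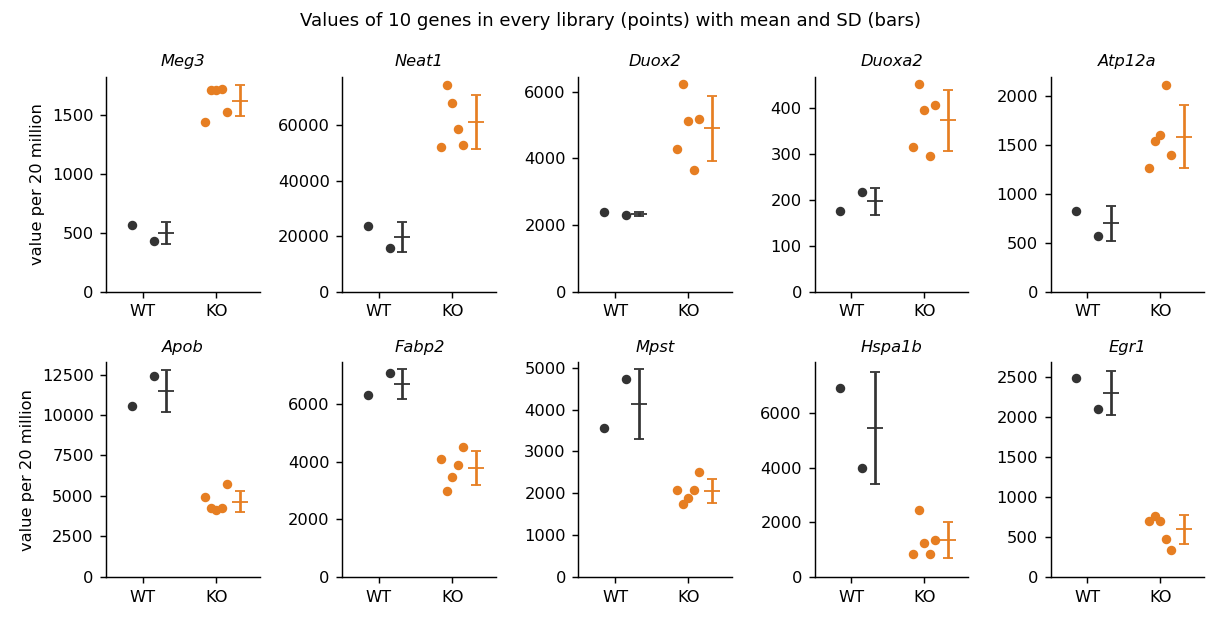
Values per 20000000 of 10 genes in each of 2 WT (black) and 5 KO (orange) crypt libraries, with the mean and SD of each group beside the points, each panel starting at 0. In every panel the KO points lie on one side of both WT points, above them for *Meg3*, *Neat1*, *Duox2*, *Duoxa2* and *Atp12a* and below them for *Apob*, *Fabp2*, *Mpst*, *Hspa1b* and *Egr1*.

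The share of genes called differed between classes of RNA. Of the 809 genes of the GENCODE class TEC, mostly unspliced models that await experimental evidence, 360 (44.5%) were higher and 4 lower, and of 107 sense intronic genes 58 (54.2%) were higher and 0 lower. Processed pseudogenes (89 of 331 higher, 26.9%), long intergenic noncoding RNAs (72 of 362, 19.9%) and antisense genes (134 of 897, 14.9%) stood in between. Protein-coding genes were low, with 444 of 12502 higher (3.55%) and 189 lower (1.51%). Small nucleolar RNA genes were lower still, with 4 of 146 higher (2.74%) and 0 lower. The median log2 fold change was 0.56 for TEC and 0.62 for sense intronic genes, and -0.01 for protein-coding genes.

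Most of the genes of the first pair of classes lie inside a protein-coding gene on the same strand, 535 of the TEC genes (66.1%) and 106 of the sense intronic genes (99.1%). Their host genes had median log2 fold changes of only 0.07 and 0.08. The eKO minus control medians of both classes were -0.05 and -0.06. TEC and sense intronic genes together took 0.679% and 0.682% of the 2 WT libraries and 0.905% to 1.08% of the 5 KO libraries, without overlap. Reads from unspliced RNA of a host gene also fall on such models, and these values do not separate the sources. Without a stated strand setting, antisense genes cannot be told apart from their partners.

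**Figure D4:**
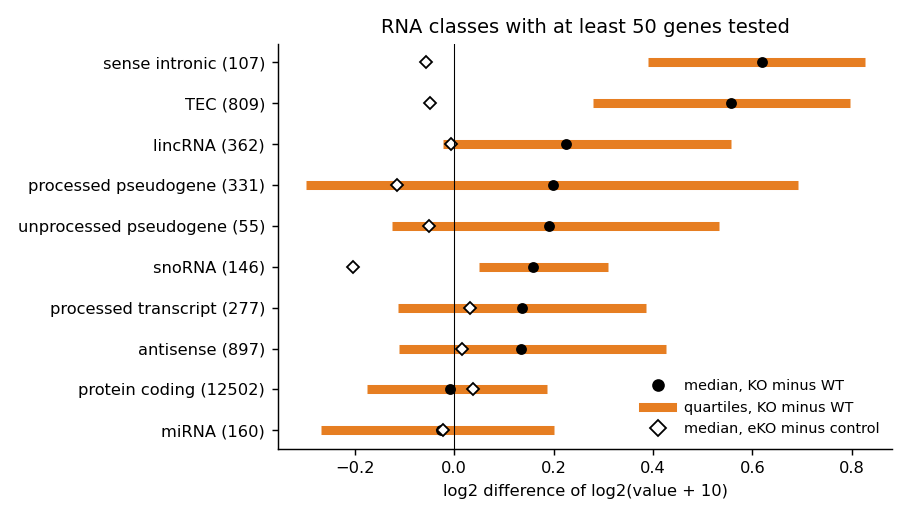
Median (black point) and quartiles (orange bar) of the log2 difference between KO and WT crypts for each GENCODE class with at least 50 genes tested (number in brackets), with the median of eKO minus control as an open diamond. Sense intronic (0.62) and TEC genes (0.56) have medians far above protein-coding genes (-0.01), whereas the diamonds of both classes lie just below 0.

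Among protein-coding genes the difference also followed length. In the 345 genes with an exonic length of up to 1 kb the median log2 fold change was -0.23, and it passed through -0.17, -0.08 and 0.03 to 0.11 in the 2340 genes over 8 kb. In the shortest genes 2.32% were higher and 4.64% lower, in the longest 4.27% and 0.812%. Spearman's rho between length and log2 fold change across 12502 genes was 0.34, and -0.12 for eKO minus control. It is a description across genes, which share their libraries and are not replicates. The short mRNAs of cytosolic ribosomal proteins took 2.14% and 2.19% of WT libraries and 1.56% to 1.77% of KO libraries. For 81 of the 91 tested, every KO library was below both WT libraries, which held for 13.1% of all genes. Of the 91, 2 were called lower (2.20%, near the 1.53% of all genes) and 1 higher (1.10%, against 7.95%). Mitochondrially encoded RNA overlapped, at 9.31% and 10.7% in WT and 8.53% to 11.0% in KO libraries, with 0 of 36 genes called. The part of RNA quality or library preparation in these class and length differences was not tested.

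**Figure D5:**
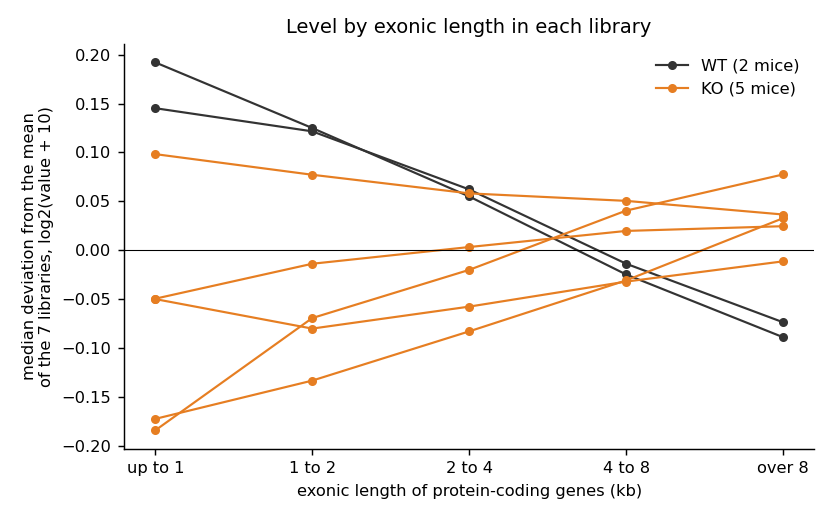
Median deviation of protein-coding genes from their mean over the 7 libraries (log2 scale) in 5 bins of exonic length, a line for each of 2 WT (black) and 5 KO (orange) libraries. The WT lines fall from 0.19 and 0.15 in the shortest bin to -0.09 and -0.07 in the longest, and KO lines end between -0.01 and 0.08. KO mouse 4 starts at 0.10, above 0 like the WT mice.

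*Duox2*, a dual oxidase that makes hydrogen peroxide at the surface of the epithelium, and both maturation factors of the dual oxidases were higher in KO crypts. *Duox2* (ENSMUSG00000068452, chromosome 2, 122279247 to 122298449, minus strand) had 2378 and 2297 in WT crypts and 4289, 6235, 5102, 3657 and 5179 in KO crypts. All KO libraries were above both WT libraries, with means of 2338 ± 57.3 (SD, n = 2) and 4892 ± 977 (SD, n = 5), 1.04 on the log2 scale (standard error 0.16, adjusted p = 0.00616 in limma). *Duoxa2*, the factor that carries DUOX2 to the membrane, rose from 176 and 218 to 315, 454, 397, 295 and 408 (0.88, standard error 0.18, adjusted p = 0.0155), and *Duoxa1* from 80 and 91 to between 140 and 192 (0.81, adjusted p = 0.0213). Of the 8 NADPH and dual oxidase genes tested, these 3 were higher (37.5%, against 7.95% of all genes) and 0 lower (median 0.25). *Duox2* and the list were chosen with earlier results of these data known, so that the share is a description and no separate support. *Duox1* was under the filter and overlapped between the groups, at 35 and 10 in WT and 28 to 53 in KO crypts. All 3 calls held under every alternative. *Duox2* in the second line had 4101, 4059 and 3722 in controls and 4009 and 6532 in eKO mice (0.37, standard error 0.22).

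*Duox2* and *Duoxa2* lie head to head, with RefSeq starts 673 bases apart on GRCm38.p6. The 250 bases before each start are shown because the genes share this region and rose together. Capitals mark TATAAA, searched on both strands (TATAAA or TTTATA) and present in 12.4% of 32851 RefSeq promoter windows of the same length. It was found 30 bases before the RefSeq start of *Duoxa2* and not in the window of *Duox2*. GENCODE places the start of *Duox2* at 122298449, inside the window shown. Part of that window thus lies within the annotated gene, and the absence holds for the RefSeq window only.
Duoxa2, chr2:122298650-122298899, plus strand: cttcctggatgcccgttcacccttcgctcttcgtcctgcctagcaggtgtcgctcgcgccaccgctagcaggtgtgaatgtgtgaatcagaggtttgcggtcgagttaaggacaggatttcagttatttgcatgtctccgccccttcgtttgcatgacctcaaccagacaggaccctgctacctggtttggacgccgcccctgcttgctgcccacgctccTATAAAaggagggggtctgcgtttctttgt
Duox2, chr2:122298228-122298477, minus strand: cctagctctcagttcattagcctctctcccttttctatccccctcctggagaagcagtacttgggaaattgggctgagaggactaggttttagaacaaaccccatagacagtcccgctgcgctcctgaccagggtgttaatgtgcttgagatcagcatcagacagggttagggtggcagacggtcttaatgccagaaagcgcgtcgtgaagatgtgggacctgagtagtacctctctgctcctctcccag

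Surface ion transporters of colonocytes differed in both directions. Of the 21 ion and water transport genes tested, 4 were higher and 1 lower (median 0.11). *Atp12a*, the colonic proton-potassium pump, had 823 and 569 in WT and 1265, 1542, 1595, 2111 and 1399 in KO crypts (1.18, standard error 0.18, adjusted p = 0.00616). *Slc9a3*, the sodium-proton exchanger NHE3, had 2589 and 1999 in WT and 4590, 5659, 3301, 10136 and 9688 in KO crypts (1.42, standard error 0.35, adjusted p = 0.031), where KO mice 4 and 5 were far above the other 3. The epithelial sodium channel subunits *Scnn1b* (0.84) and *Scnn1g* (1.83) rose, and *Slc16a1* (above) fell. *Car4* (0.42, adjusted p = 0.0963) and *Guca2a* (-0.27, adjusted p = 0.111) did not pass the fold threshold. The calls of *Slc9a3*, *Scnn1b* and *Scnn1g* were lost without WT mouse 2, and that of *Atp12a* with all 12 libraries in the fit (adjusted p = 0.315).

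*Apob* encodes apolipoprotein B, the structural protein of chylomicrons and other lipoproteins. *Apob* (ENSMUSG00000020609, chromosome 12, 7977648 to 8016835, plus strand) had 10554 and 12418 in WT crypts and 4924, 4246, 4115, 4281 and 5718 in KO crypts. The highest KO library was well under the lowest WT library, at a ratio of means of 0.405 and -1.31 on the log2 scale (standard error 0.13, adjusted p = 0.000504). The call held under every alternative. Controls of the second line had 12886, 5350 and 5312 and eKO mice 6163 and 7997, so that the controls ranged from within the KO values to above both WT values. Sorted Epcam-positive cells of a WT mouse had 4398 and 3740.

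*Fabp2*, the intestinal fatty acid binding protein, fell from 6330 and 7088 to 4093, 3000, 3481, 3878 and 4518 (-0.83, standard error 0.14, adjusted p = 0.00822). Of the 19 genes of lipoprotein assembly and lipid uptake tested, *Apob* and *Fabp2* were lower (10.5%, against 1.53% of all genes) and 0 higher. The list had a median log2 fold change of -0.16. *Apob* and the list were chosen with earlier results of these data known, so that the share is a description and no separate support. *Abca1* (-0.54) and *Sar1b* (-0.40) lay below WT in all 5 KO libraries without passing the fold threshold. *Scd1*, the stearoyl-CoA desaturase, fell from 2075 and 2085 to between 1273 and 1414 (-0.65, adjusted p = 0.00293). Of the 20 cholesterol synthesis genes tested 0 were called (median 0.14), with *Insig1* at 0.52 (adjusted p = 0.081) the nearest.

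Of the 13 genes of sulfate activation and sulfide handling tested, 4 were lower (30.8%, against 1.53% of all genes) and 0 higher, with a median of -0.49. *Mpst* (chromosome 15, 78406416 to 78414013), a mitochondrial enzyme that makes hydrogen sulfide, had 3550 and 4723 in WT and 2072, 1743, 1894, 2079 and 2501 in KO crypts (-1.0, standard error 0.14, adjusted p = 0.00398). *Papss2*, which makes the sulfate donor for mucin and lipid sulfation, had 16409 and 24498 in WT and 9538, 10588, 10910, 10106 and 13028 in KO crypts (-0.90, standard error 0.15, adjusted p = 0.00897). Neither gene overlapped between the groups. The other lower genes were the sulfotransferases *Sult1c2* (-0.72) and *Sult1d1* (-0.66). Without WT mouse 2 *Papss2* was at -0.61 and still called, and *Sult1d1* (-0.48) was not. *Sult1c2* was not called with all 12 libraries in the fit (adjusted p = 0.256). In the second line *Papss2* was at 17294, 18917 and 16262 in controls and 10954 and 13262 in eKO mice (-0.53, standard error 0.18).

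*Cyp4b1* (chromosome 4, 115624725 to 115647723), a cytochrome P450 of the fatty acid hydroxylase family, fell from 1287 and 1388 to 503, 596, 553, 599 and 732 (-1.16, standard error 0.13, adjusted p = 0.00125). Of the 16 cytochrome P450 and aryl hydrocarbon receptor targets tested, 5 were lower (31.2%, against 1.53% of all genes), 1 was higher and 10 were not called (median -0.45). *Cyp2d26* (-1.23), the quinone reductase gene *Nqo1* (-0.73), *Cyp4f14* (-0.59) and *Cyp2c66* (-0.59) fell and *Cyp2d34* (1.11) rose. The calls of *Cyp4f14* and *Cyp2c66* were lost without either WT mouse and without KO mouse 1, *Cyp4f14* also without KO mice 2 or 3 and *Cyp2c66* without KO mouse 5. *Cyp2d34* was lost without WT mouse 2, and *Cyp4b1* with all 12 libraries in the fit (adjusted p = 0.222).

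The carboxylesterases, which hydrolyse esters of drugs and lipids, were examined after their values were seen, as a family by name. Of 10 tested, 6 were lower (60%, against 1.53% of all genes) and 0 higher. *Ces1g* fell from 2618 and 4377 to between 1460 and 1859 (-1.05, adjusted p = 0.0063, and -0.68 without WT mouse 2, still called), and *Ces2e* from 4586 and 5359 to between 2080 and 3341 (-0.95, adjusted p = 0.00902). *Ces1d* (-0.86), *Ces2b* (-1.15), *Ces2a* (-0.75) and *Ces1e* (-0.59) were the others, *Ces2b* being lost without WT mouse 2 and *Ces2a* with all 12 libraries in the fit. Also chosen after the values were seen, *Vnn1*, the pantetheinase vanin 1 (-1.06, adjusted p = 0.00752), and *Slc51a*, a subunit of the basolateral bile acid exporter (-0.90, adjusted p = 0.0106), were lower in all 5 KO libraries than in both WT libraries.

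Genes that respond within minutes to handling and stress formed the list with the largest share of lower calls among those with over 10 genes tested. Of the 15 immediate early and heat-shock genes tested, 8 were lower (53.3%, against 1.53% of all genes) and 0 higher in KO crypts. The median log2 fold change was -0.59 against 0.03 for all genes. All KO libraries were below both WT libraries for 10 of the 15, and for 13.1% of all genes. *Egr1*, an early growth response transcription factor, had 2485 and 2096 in WT and 699, 765, 696, 472 and 333 in KO crypts (-1.99, standard error 0.26, adjusted p = 0.00246). *Fos* fell from 3012 and 2549 to 1511, 936, 1775, 1756 and 1483 (-0.92, standard error 0.20, adjusted p = 0.0188), *Fosb* from 176 and 195 to between 62 and 95 (-1.16, adjusted p = 0.0105), and *Ier2* from 1199 and 1127 to between 626 and 909 (-0.59), a call lost without WT mouse 1 or KO mice 2 or 4.

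Of the heat-shock genes, *Hspa1b* had 6924 and 3999 in WT and 845, 2462, 1246, 834 and 1338 in KO crypts (-2.08, standard error 0.34, adjusted p = 0.00831). *Hspa1a*, its neighbour and near copy, had 3563 and 2021 in WT and 384, 1221, 615, 290 and 458 in KO crypts (-2.34, standard error 0.40, adjusted p = 0.0093). The groups did not overlap, and WT mouse 1 was highest and KO mouse 2 highest among KO mice for both genes. The counting can split reads between these copies. *Gm20481* overlaps *Hspa1a* and may hold some of the same reads. *Dnajb1*, a cochaperone of the HSP70 proteins, fell from 2187 and 1637 to between 822 and 1189 (-0.95, adjusted p = 0.00909). *Hsph1* (-0.78, adjusted p = 0.101) overlapped between the groups and was not called without WT mouse 1 (-0.33). Its call held under 12 of 18 alternatives. In the second line *Hspa1b* was at 357, 1194 and 833 in controls and 213 and 415 in eKO mice (-1.22, standard error 0.49), under all WT values of the Olfr78-GFP line, and *Egr1* was at 532, 353 and 344 in controls and 517 and 266 in eKO mice.

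The 250 bases before the RefSeq starts of *Hspa1a* and *Hspa1b*, 12918 bases apart, are shown because both genes fell together and heat-shock factor acts through repeats of GAA and TTC. Capitals mark GAANNTTC, searched on both strands (as GAANNTTC or TTCNNGAA) and present in 12.8% of the 32851 promoter windows. It begins 104 bases before each start, and the windows differ at 3 of 250 bases.
Hspa1a, chr17:34972157-34972406, minus strand: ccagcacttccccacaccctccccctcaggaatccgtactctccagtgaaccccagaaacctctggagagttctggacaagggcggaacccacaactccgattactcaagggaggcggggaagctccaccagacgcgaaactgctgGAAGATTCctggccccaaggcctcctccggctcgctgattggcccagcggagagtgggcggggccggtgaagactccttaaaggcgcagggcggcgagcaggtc
Hspa1b, chr17:34959239-34959488, minus strand: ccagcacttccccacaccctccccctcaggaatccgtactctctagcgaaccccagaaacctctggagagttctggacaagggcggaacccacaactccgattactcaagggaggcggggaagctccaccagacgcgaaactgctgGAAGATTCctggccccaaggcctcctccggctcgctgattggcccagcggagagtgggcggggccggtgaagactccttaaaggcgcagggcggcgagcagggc

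Genes of defence and immunity were called in both directions. Of the 29 interferon-stimulated genes tested, 3 were higher (10.3%, near the 7.95% of all genes) and 0 lower (median 0.04). *Oas2*, an antiviral sensor enzyme, rose from 24 and 19 to 70, 81, 103, 88 and 132 (1.71, adjusted p = 0.00541), *Mx1*, an antiviral GTPase, from 104 and 50 to between 154 and 295 (1.56, adjusted p = 0.00918), and *Oas1g* from 134 and 150 to between 166 and 272 (0.62), a call lost without either WT mouse and without KO mouse 4. *Oasl1* was at -0.46 (adjusted p = 0.131). *Slfn4*, a Schlafen gene induced by interferon and among the 10 risen genes of smallest p, rose from 738 and 535 to between 1400 and 1959 (1.43, adjusted p = 0.000982), and with all 12 libraries in the fit it was not called (adjusted p = 0.208).

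Of the 16 antimicrobial and acute-phase genes tested, 2 were higher (12.5%, against 7.95% of all genes). Lower calls numbered 3 (18.75%, against 1.53% of all genes), and the median was -0.11. *Retnlb*, the goblet cell protein RELM-beta, fell from 917 and 2001 to between 625 and 907 (-0.87, adjusted p = 0.0442), and its value rested on WT mouse 2, without which it was -0.32 and not called, and on WT mouse 1, without which it was -1.43. *Saa1* (-0.63) and *Lyz2* (-1.34) fell, and *Reg3g* (0.80) and *Pla2g2a* (0.83) rose. The calls of *Reg3g* and *Pla2g2a* were lost without either WT mouse, *Reg3g* also without KO mice 3 or 4, that of *Lyz2* without WT mouse 1 (-0.67), and that of *Saa1* without WT mouse 2 or KO mouse 3. Over all 18 alternatives *Reg3g* kept its call under 8 and *Saa1* under 14.

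*Gsdmc4*, a gasdermin C gene of the pore-forming gasdermin family, fell from 11866 and 21121 to 5162, 8832, 6357, 7335 and 11161 (-1.08, standard error 0.26, adjusted p = 0.0297). Of the 11 gasdermin and inflammasome genes tested 3 were lower (27.3%, against 1.53% of all genes) and 0 higher. The other lower genes were the paralog *Gsdmc2* (-0.82) and the inflammasome adaptor *Pycard* (-0.61). *Casp1* was at -0.33 with no overlap. Without WT mouse 2 the log2 fold changes were -0.66 for *Gsdmc4*, -0.38 for *Gsdmc2* and -0.49 for *Pycard*, and all 3 calls were lost. *Gsdmc2* was at -1.26 without WT mouse 1, and *Pycard* was also lost without WT mouse 1 or any of KO mice 1 to 3. The *Pycard* call held under 9 of 18 alternatives. In the second line *Gsdmc4* had 25839, 24688 and 14166 in controls and 10215 and 10581 in eKO mice (-1.0, standard error 0.28).

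Markers of other cells were low. The 21 leukocyte markers summed to 1020 and 1184 in WT and 727 to 1071 in KO libraries. *Ighm* (-1.35) and *Ptprc* (-0.66) were lower, 2 of 10 tested (20%, against 1.53% of all genes), and 0 were higher. The class II antigen presentation genes *Cd74* (227 and 195 in WT, 53 to 130 in KO, -1.40, adjusted p = 0.0174) and *H2-Aa* (83 and 111 in WT, 10 to 41 in KO, -1.60, adjusted p = 0.0188) fell. They were 2 of 3 tested (66.7%, against 1.53% of all genes), and *H2-Ab1* was at -0.45 (adjusted p = 0.38). These genes are expressed by leukocytes and also by gut epithelium. *C1qa*, a macrophage gene chosen after its values were seen, fell from 56 and 48 to between 0 and 25 (-1.64, adjusted p = 0.0445). *H2-Aa* was not called without WT mouse 2, *Cd74* not with all 12 libraries in the fit (adjusted p = 0.211), and *Ptprc* not without either WT mouse or KO mice 3 or 4.

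The 10 fibroblast markers summed to 2979 and 1176 in WT and 675 to 1889 in KO libraries, and 0 of 8 tested were called (median -0.65). *Dcn* had 1175 and 492 in WT and 139 to 736 in KO (-1.01, adjusted p = 0.204). Smooth muscle markers summed to 468 and 498 in WT and 560 to 904 in KO libraries, and 1 of 2 tested was higher (50%, against 7.95% of all genes). It was *Myh11*, a smooth muscle myosin, from 54 and 25 to 235, 247, 107, 247 and 107 (1.97, adjusted p = 0.0112). Endothelial (264 to 370 in WT, 236 to 426 in KO) and red blood cell markers (80 to 164 and 42 to 110) overlapped, with 0 of 3 and 0 of 1 called. No marker of enteric neurons and glia, pancreatic acinar cells or squamous epithelium passed the filter, and *Cpa1* was at 0 in all 7 libraries. Of the small-intestinal enterocyte and Paneth cell markers 0 of 4 tested were called and *Apoa4* was at 0 in all 7 libraries.

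The labelled tissue was checked on its own markers, and colonocyte, goblet and other epithelial genes were abundant in all 7 libraries. Of the 10 stem cell markers tested 1 was lower (10%, against 1.53% of all genes) and 0 higher, with a median of -0.24. It was *Lgr5*, the Wnt-amplifying receptor of crypt base stem cells, from 568 and 614 to 376, 334, 401, 254 and 383 (-0.76, standard error 0.16, adjusted p = 0.0195). The call was lost without WT mouse 2 (-0.70, adjusted p = 0.211). Of the 23 genes of cell division and DNA replication 0 were called (median -0.08). Among them *Plk1* (0.46) and *Mki67* (0.24) lay above and *Pcna* (-0.36) below WT in all KO libraries.

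Of the 7 colonocyte markers, *Ceacam20* was higher (0.61) and *Slc37a2* lower (-1.38), 14.3% each. Of the 11 goblet cell markers 1 was higher and 1 lower, 9.09% each. Of all genes, 7.95% were higher and 1.53% lower. The goblet marker *Bcas1* was higher, from 1300 and 1116 to between 1699 and 2342 (0.70, adjusted p = 0.00972). *Reg4*, a marker of deep crypt secretory cells, was lower, with 10830 and 13902 in WT and 4192, 5127, 4705, 907 and 4251 in KO crypts (-1.89, standard error 0.51, adjusted p = 0.0431), where KO mouse 4 was far below the other 4. *Clca1*, an abundant goblet cell gene, overlapped between the groups (0.34, adjusted p = 0.282). *Reg4* and *Slc37a2* were lost without WT mouse 2, and *Ceacam20* without WT mouse 2 or KO mice 4 or 5. Summed goblet markers took 2.04% and 2.35% of WT and 1.95% to 3.36% of KO libraries.

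*Olfr78* is expressed in enteroendocrine cells. Of their 8 markers tested 2 were lower (25%, against 1.53% of all genes) and 0 higher, *Chgb*, a granin of secretory granules, at 7646 and 4210 in WT and 5109, 4233, 3759, 3100 and 2784 in KO crypts (-0.61, adjusted p = 0.124), and the carboxypeptidase E gene *Cpe* (-0.59, adjusted p = 0.194). The groups overlapped for both. *Chgb* was at -0.18 without WT mouse 1 and -1.04 without WT mouse 2, and its call was also lost without KO mice 4 or 5. The *Chgb* call held under 9 of 18 alternatives. It was lost with DESeq2, robust moderation, no trend and the replicate block (-0.29), among others. The call of *Cpe* held under 4 of 18 and was lost without any library but KO mouse 1. Of the 5 enterochromaffin markers tested 0 were called (median -0.24), with *Tph1*, the serotonin-making enzyme, at 2530 and 1365 in WT and 1112 to 2281 in KO crypts (-0.24, adjusted p = 0.612). Of the 3 L cell markers 0 were called, with log2 fold changes of -0.50 for *Insl5*, -0.20 for *Pyy* and -0.22 for *Gcg*. Of the 6 tuft cell markers tested 0 were called, with *Dclk1* at 0.10.

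Of the 12 region and Hox genes tested 2 were higher (16.7%, against 7.95% of all genes). These were *Hoxd10* (19 and 16 in WT, 28 to 91 in KO, 1.16) and *Hoxd11* (46 and 59 in WT, 56 to 261 in KO, 1.06). Both calls were lost without either WT mouse. Of the 16 circadian clock genes tested 0 were called (median 0.10), with *Arntl* and *Npas2* both at 0.28. Of 58 replication-dependent histone genes tested 1 was higher (1.72%, against 7.95% of all genes) and 0 lower (median -0.19).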

How the data were processed

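RNA was extracted from colon crypts with a column kit, and total RNA libraries were made with the Ovation Solo system and sequenced as paired ends. According to the methods, the authors used STAR for mapping on GRCm38 and HTSeq with an Ensembl annotation for read counting. Tool versions and the strand setting of the counting are not given in the sources used here. The deposited crypt values are a score: each gene's reads, brought to 20000000 per library, then raised to the next whole number. For sorted cells the authors deposited a signal made the same way. A whole number of reads, scaled and rounded up, gave exactly the deposited value for 99.8% to 100.0% of the genes above 0 in each library, so that the depth of each library could be read from them.

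Groups were taken from the sample titles. Log2(value + 10) was fitted with limma 3.58.1 in R 4.3.3, letting the spread follow the mean level, on the 2 WT and 5 KO libraries alone and without covariates, for genes with at least 40 (2 CPM) in at least 2 of the 7. The thresholds follow the study's methods for crypts, which used edgeR. Counting error limits low genes, since 1 read is worth 2.26 to 3.24. The KO and WT libraries were taken as separate mice, as the titles number them. Alternatives tried were a pseudocount of 1 or of 40, rescaling by median of ratios, no filter and a filter of 100, no trend, robust moderation, all 12 crypt libraries in 1 fit, the quasi-likelihood test of edgeR 4.0.16 and DESeq2 1.42.0 on recovered reads, the mouse number as a block, and leaving out each library. The values were not raw counts, so tests of counts served as alternatives. In simulated reads for KO against WT crypts over 15975 genes, 59 of 67 genes changed 2-fold and 66 of 66 changed 4-fold were called, 23 of 67 changed 1.5-fold, and 22 of 15775 unchanged genes. The changed genes were drawn only from those above a minimum mean number of reads. Each gene's spread followed the trend with its level, and no class or length differences were simulated. These rates may therefore be better than those in the real libraries.

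Positions and classes are from GENCODE M21 (GRCm38), which held 15944 of the genes tested, and promoter sequences from RefSeq (GRCm38.p6). The comparison, its leading genes and the gene lists were chosen with earlier results of these data known. Genes are named by this rule: *Olfr78*, *Olfr558*, *Meg3*, *Apob* and *Duox2*, the 10 genes with the smallest p past both thresholds in each direction, list genes past both thresholds, and up to 4 examples of each list. Of the first 20, *Gm28006*, *2010109I03Rik*, *Leng8*, *Gm27533*, *Ahnak2*, *9030622O22Rik* (higher) and *Gm10020* (lower) are only named here. *Gm28006* and *Gm27533* lie inside *Neat1* on the same strand and may hold some of its reads. Genes near *Olfr78* and others marked as such were chosen after their values were seen.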

Additional observations from a re-analysis of the deposited data

Results flagged for a closer look

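Of the 5 KO libraries, 1 stood far from the other 4 for 6 of the 149 named genes tested for this. Chance flags about 1 in 20 groups of values, and the number of flags is not above that share. The named genes include some chosen after their values were seen, *Ftl2-ps*, *Mir692-2* and *Ftl1* among them, and some that overlap. The number of flags therefore cannot decide whether they arose by chance. *Reg4* was lowest in KO mouse 4, at 907 against 4192 to 5127 in the other KO mice. *Airn* was highest in KO mouse 5, at 695 against 361 to 445, and the predicted gene *9030622O22Rik* highest in KO mouse 2, at 826 against 636 to 686.

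The other 3 involve KO mouse 1 and ferritin light chain. The processed pseudogene *Ftl2-ps* was at 0 and 7 in WT mice and at 6 in KO mouse 1, but at 538, 551, 553 and 519 in KO mice 2 to 5. *Mir692-2*, which overlaps it on the same strand, was at 0 in both WT mice and in KO mouse 1 and at 276, 307, 284 and 261 in the others. The parent gene *Ftl1* was highest of the KO mice in KO mouse 1, at 5073 against 3362 to 3756 in KO mice 2 to 5 and 6264 and 6158 in WT mice. *Rps13-ps1*, on another chromosome, had the same split, with 6 and 3 in WT, 0 in KO mouse 1 and 467 to 864 in KO mice 2 to 5, while *Rps13* was at 3689 and 3626 in WT, 2732 in KO mouse 1 and 2100 to 2608 in the others. Reads of such copies can be split between the pseudogene and its parent. These genes were named after their values were seen.

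The KO minus WT difference and the eKO minus control difference were not alike, by the interaction term of limma over 12 crypt libraries, for *Gm8979* (-6.26), *Trim12a* (-4.45), *Trim30d* (-3.38), *AC123830.1* (-2.72) and *Gm27149* (-2.45), in log2 units of KO minus WT less eKO minus control.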

How the results depend on the processing

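Of the 123 named genes called, 56 kept their call under every alternative that gave a value for them, which for some low genes was not all of them, and 0 changed direction. The counts were 1270 higher and 244 lower. They moved by over 1.5 times with a pseudocount of 40 (697 and 157), a filter of 100 (752 and 162, with fewer genes tested), all 12 crypt libraries in 1 fit (504 and 132) and an adjusted p of at most 0.05 (577 and 111). With 1 library left out they ranged from 460 to 1408 and from 86 to 286. Apart from the replicate block (below), they stayed within 1.5 times under the other alternatives, edgeR (1309 and 332) and DESeq2 (1040 and 249) included. The difference between the lines was called for 5 genes, 3 with a pseudocount of 1, and 2 to 3063 with 1 library left out.

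The deviations of WT and KO mice with the same number had correlations of 0.06 and -0.10. With 2 WT mice the WT deviations mirror each other, so these correlations cannot decide whether equal numbers mark a shared batch or litter. WT and KO mice are different animals by genotype. With the replicate block 1129 genes were higher and 426 lower, and *Tph1* reversed to 0.21. With 1 library left out *Tph1* ranged from -0.68 to 0.21 and *Slc5a8* from -0.080 to 0.043. The causes were not tested. The WT spread rests on 2 mice, and low genes rest on few reads, each worth 2.26 to 3.24.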

Other observations

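The following genes outside the lists were chosen after their values were seen, and they stand for no group. *Lama5* and *Lama3*, laminin chains of the basement membrane, rose from 112 and 116 to between 229 and 467 (1.56, adjusted p = 0.00539 in limma) and from 1375 and 1098 to between 2061 and 3250 (1.10, adjusted p = 0.0063). *Muc3a*, a membrane mucin, rose from 2389 and 2069 to between 3291 and 4202 (0.73, adjusted p = 0.0049), and *Dst*, a large cytoskeletal linker, from 9526 and 9050 to between 13321 and 16693 (0.73, adjusted p = 0.00459). *Trpv3*, a warmth-sensing cation channel, rose from 184 and 215 to 448, 878, 537, 1223 and 940 (1.87, adjusted p = 0.00786), with KO mice 2, 4 and 5 above the other KO mice. *Cps1*, the carbamoyl phosphate synthase of the urea cycle, fell from 1241 and 1478 to between 330 and 775 (-1.19, adjusted p = 0.0178), a call lost without WT mouse 2 or with all 12 libraries in the fit. In the second line the eKO minus control log2 fold changes were 0.48 for *Lama5*, -0.02 for *Lama3*, -0.14 for *Muc3a*, -0.14 for *Dst*, -0.10 for *Trpv3* and -1.0 for *Cps1*, none of them called.

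The pseudogenes *Ftl2-ps* and *Rps13-ps1*, near 0 in WT crypts and in KO mouse 1, had 380 and 321 and 380 and 707 in the sorted GFP-positive pools of heterozygous mice of the same line.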
